A study of Homo sapiens with 26 samples.

Results

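The replication-dependent histone genes of human chromosome 6 were taken as all protein-coding genes of that chromosome whose symbols in the GENCODE 44 annotation, lifted to GRCh37, name an H1, H2A, H2B, H3 or H4 cluster gene (such as H1-1, H2AC6, H2BC4, H3C1 or H4C5). The rule found 51 genes of 20162 protein-coding genes on chromosomes 1 to 22, X and Y. The 51 genes are 6 H1, 12 H2A, 13 H2B, 10 H3 and 10 H4 genes. RefSeq lists 55 such symbols on the chromosome, and H2BC7, H2BC8, H4C2 and H4C6 were not members here. H4C2 is carried under its older symbol, HIST1H4B, in the annotation used.

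Binding was measured by chromatin immunoprecipitation and sequencing against the HALO tag in BJ cells, a line of human foreskin fibroblasts. Cells carried HALO-tagged FOXA1, the FOXA1 variants that the labels call FOXA1dbd, FOXA1nhaa and FOXA1rraa, or HNF4A, each expressed ectopically for 48 h. The labels name 2 immunoprecipitated and 2 input libraries per construct, but 1 peak list per construct was analysed, so there is no replicate error, no difference between constructs was tested, and the read depth is unknown. The lists held 155652 FOXA1, 28831 FOXA1dbd, 105591 FOXA1nhaa, 71202 FOXA1rraa and 38291 HNF4A peaks. H2Bhalo samples were not analysed here. The FOXA1rraa list does not stand on its own at these genes: of its 20 peaks there, 11 had the coordinates of FOXA1nhaa peaks and 8 those of FOXA1 peaks. The remaining FOXA1rraa peak carried the name prefix Nonspecific_FOX. Of the 13 FOXA1dbd peaks, 1 carried the name prefix WT_FOX in place of IP1 or IP3.

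FOXA1 is a forkhead factor that can bind its sites on nucleosomes, and its forkhead domain has a winged-helix fold that resembles the globular domain of linker histone H1. HNF4A is a nuclear receptor that, like FOXA1, is known for its role in liver. H2A, H2B, H3 and H4 form the nucleosome core, and H1 proteins bind the DNA that enters and leaves it. The replication-dependent histone genes are short, mostly without introns, and transcribed in S phase from several clusters of which that on chromosome 6 is the largest. Many H2A and H2B genes stand in divergent pairs that share the stretch between their starts, where the octamer ATTTGCAT, a site known for POU2F1, is common in H2B promoters.

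The stretches between paired starts are shown because a FOXA1 peak was centred in some and in others not. All sequences were read from GRCh37, plus strand, 5′ to 3′. Capitals mark the octamer ATTTGCAT or its complement ATGCAAAT. The first 4 stretches each held a FOXA1 peak centre, and the last 2 held no peak of any list. They lay at chr6:26124155-26124372, chr6:27100575-27100821, chr6:27806154-27806322, chr6:27860964-27861202, chr6:27114635-27114884 and chr6:27775708-27775950, in the order printed.
H2BC4/H2AC6: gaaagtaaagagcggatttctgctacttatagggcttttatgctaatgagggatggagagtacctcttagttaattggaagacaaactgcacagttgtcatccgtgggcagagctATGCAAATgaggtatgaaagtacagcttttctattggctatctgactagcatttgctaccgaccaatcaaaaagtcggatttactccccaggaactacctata
H2BC11/H2AC11: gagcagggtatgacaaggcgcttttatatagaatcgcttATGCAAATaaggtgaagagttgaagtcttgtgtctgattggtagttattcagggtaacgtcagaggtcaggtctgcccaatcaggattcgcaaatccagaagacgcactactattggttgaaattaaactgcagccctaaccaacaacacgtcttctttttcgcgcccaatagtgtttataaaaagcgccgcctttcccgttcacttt
H2AC15/H2BC15: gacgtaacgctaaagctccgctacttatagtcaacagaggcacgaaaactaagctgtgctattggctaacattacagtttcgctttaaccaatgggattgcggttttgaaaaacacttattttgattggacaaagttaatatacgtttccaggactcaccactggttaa
H2AC17/H2BC17: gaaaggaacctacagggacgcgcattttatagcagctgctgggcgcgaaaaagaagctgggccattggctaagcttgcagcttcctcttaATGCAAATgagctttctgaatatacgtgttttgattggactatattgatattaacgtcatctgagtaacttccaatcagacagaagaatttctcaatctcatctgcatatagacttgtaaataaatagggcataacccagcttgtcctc
H2BC12/H2AC12: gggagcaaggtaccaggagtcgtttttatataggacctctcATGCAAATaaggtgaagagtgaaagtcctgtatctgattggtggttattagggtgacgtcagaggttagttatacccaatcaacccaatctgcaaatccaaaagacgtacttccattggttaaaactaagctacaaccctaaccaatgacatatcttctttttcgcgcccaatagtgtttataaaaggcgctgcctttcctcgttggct
H2BC13/H2AC13: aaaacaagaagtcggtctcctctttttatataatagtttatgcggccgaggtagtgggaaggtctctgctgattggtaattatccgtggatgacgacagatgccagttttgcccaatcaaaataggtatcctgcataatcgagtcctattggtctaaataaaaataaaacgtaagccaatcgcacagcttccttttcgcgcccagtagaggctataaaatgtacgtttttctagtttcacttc

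FOXA1 peaks were common at the starts of the histone genes. A FOXA1 peak centre lay within 1000 bp of the start of 24 of the 51 genes, or 47.1% (95% Wilson interval 34.1 to 60.5%), against 7.34% of all protein-coding genes, 12% of those on chromosome 6 and 3 of the 22 other protein-coding genes between the first and the last histone gene. The neighbours include HIST1H4B, itself a histone gene, and among the 3, ENSG00000282988 starts at the same base as H2AC7. The 24 genes were reached by 18 peaks, since divergent neighbours share a peak, so the genes are not independent counts and the interval covers counting error over genes alone. The same count was 4 genes for FOXA1dbd (7.84%, against 1.77% of all genes), 5 for FOXA1nhaa (9.8%, against 4.35%) and 2 for FOXA1rraa (3.92%, against 2.71%). HNF4A centres lay near 16 starts (31.4%, 20.3 to 45%), against 38.8% of all genes. Among the 22 neighbours HNF4A was near 4 starts (18.2%). The FOXA1 share thus stood above both backgrounds, and the HNF4A share was below that of all genes and above that of the neighbours. From the canonical transcript in place of the whole record, the FOXA1 count was 23, against 7.2% of all genes.

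FOXA1 centres were frequent in the short stretch just before the start. In the 300 bp before the start of the canonical transcript, 13 genes (25.5%) had a FOXA1 centre, against 0.982% of all protein-coding genes. In the 600 bp after that start 0 of 51 had one, against 0.962% of all genes, a share so low that the 0 shows nothing particular to these genes. These 2 windows were chosen after the positions had been seen. The 13 genes were reached by 9 peaks. Their centres lay 68 bp before H3C1, 140 bp before H2BC3, 203 bp before H4C3, 128 bp before H2AC7 and 264 bp before H4C9, and between the starts of 4 divergent H2A and H2B pairs. H3C1 encodes an H3, H4C3 and H4C9 encode H4, and the others encode H2A or H2B.

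**Figure D1:**
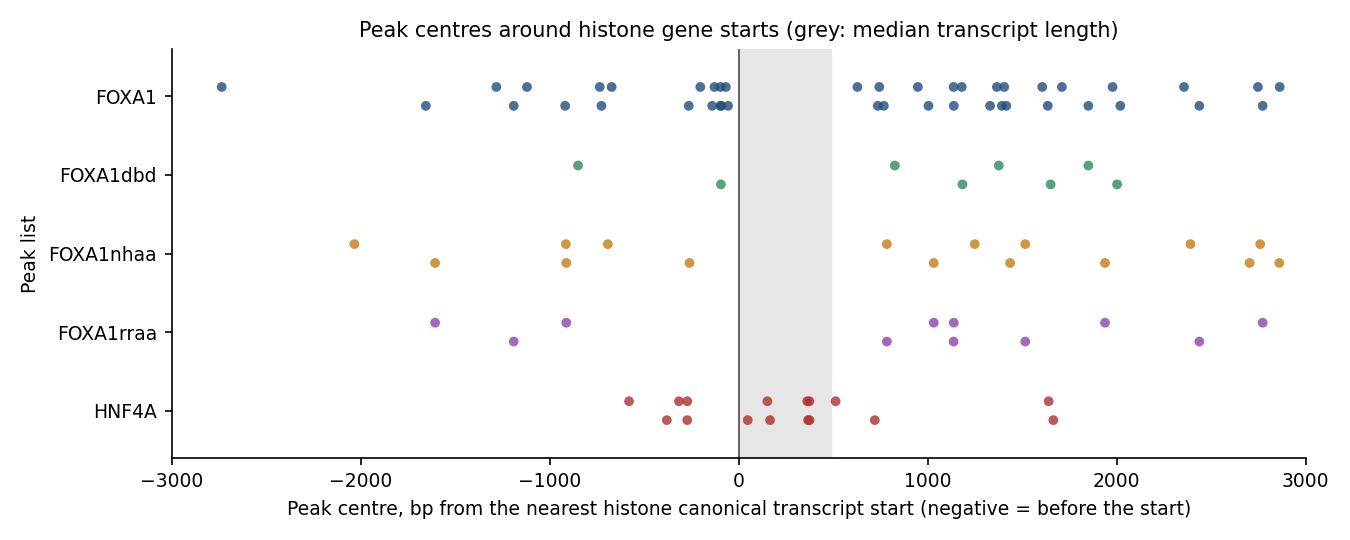
Centres of the peaks in histone gene windows by distance in bp from the nearest canonical histone transcript start, negative before it, 1 row of points per list, within 3000 bp. FOXA1 points crowd in the 300 bp before the start, and 8 HNF4A points lie in the 600 bp after it.

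HNF4A peaks lay in several of the genes themselves. Of the 19 HNF4A peaks in the histone windows, 12 (63.2%) were centred within 1000 bp of a histone start, 8 had their centre in the 600 bp after a canonical start, and 7 were centred in a coding exon, where no peak of any other list was centred. The coding-exon peaks lay in H4C4, H3C4, H2BC11, H2AC15, H3C12, H2BC17 and H2BC6. The share of coding-exon centres in the whole HNF4A list was not counted, so these 7 have no background. In the first 300 bp after the canonical start, 5.88% of the histone genes had an HNF4A centre, against 14.9% of all protein-coding genes. From there to 600 bp the shares were 9.8% and 9.17%. HNF4A centres after the start were thus less common than at all genes in the first stretch and about as common in the second. The H4C4 peak, with a score of 74, is shown because it lay wholly inside that gene, at chr6:26189116-26189231, centred 166 bp after the start. It has no capitals because the HNF4 core CAAAGTCCA was not in it on either strand.
H4C4: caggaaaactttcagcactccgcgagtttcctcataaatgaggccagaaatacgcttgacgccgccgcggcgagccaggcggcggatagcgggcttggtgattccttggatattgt

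The share of peak centres near a start was also set beside the share of window length there. Of the merged histone windows, 21.8% of the length lay within 1000 bp of a start, against 2.59% of the windows of all protein-coding genes. FOXA1 had 25.7% of its peak centres there (18 of 70), near the share of length, while in the windows of all protein-coding genes it had 1.33%. HNF4A had 63.2% there, and 29.4% in the windows of all genes. The median distance to the nearest histone start was 1914 bp for FOXA1 and 513 bp for HNF4A. Of the 18 FOXA1 peaks near a histone start, 0 overlapped an HNF4A peak, against 8.14% of the 1449 FOXA1 peaks near any protein-coding start, and of the 12 HNF4A peaks 0 overlapped FOXA1, against 1.52%. Counts this small do not set the histone starts apart from those shares.

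Divergent pairs gave the FOXA1 pattern in its narrowest window. Of the 9 pairs with canonical starts less than 1000 bp apart, 4 held a FOXA1 peak between the starts (44.4%), against 1.43% of 977 such pairs of protein-coding genes. The median stretch was 244 bp in the histone pairs and 232 bp in all pairs. The pair H2BC4 and H2AC6 held a peak with a score of 29, H2BC11 and H2AC11 one of 78, H2AC15 and H2BC15 one of 47, and H2AC17 and H2BC17 one of 103. All 4 scores were below the FOXA1 list median of 124. FOXA1dbd had a peak in 1 pair, H2AC15 and H2BC15, with a score of 37 (11.1%, against 0.102% of all pairs). FOXA1nhaa and FOXA1rraa had 0 (backgrounds 0.205% and 0.102%). HNF4A also had 0 of 9, although 52.0% of all divergent pairs held an HNF4A peak. By the outermost starts of the gene records there were 10 pairs, of which 5 held a FOXA1 peak, because a long record of H3C12 reaches the same peak as H2AC17 and H2BC17 (background 2.04%).

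The 5 pairs without a FOXA1 peak were H2AC1 and H2BC1, H3C7 and H2BC9, H2BC12 and H2AC12, H2BC13 and H2AC13, and H2AC14 and H2BC14. The octamer was in 3 of the 4 stretches with a FOXA1 peak and in 4 of the 5 without one. A forkhead core, TGTTTAC or TATTTAC on either strand, was in 1 of the 4, H2AC17/H2BC17, and in 0 of the 5. Thus neither word marked off the stretches with a FOXA1 peak.

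FOXA1 centres near the start were common at H2A, H2B and H3 genes and few at H4 and H1 genes. A centre was within 1000 bp of the start of 7 of 12 H2A genes, 8 of 13 H2B genes, 7 of 10 H3 genes, 2 of 10 H4 genes and 0 of 6 H1 genes. Types share peaks: at H3C2, H3C3, H3C8 and H3C12 the peak lay nearer to the start of an H2A or H2B gene. H3C12 was counted through its long gene record, and the H3C6 centre lay 918 bp before the canonical start. The H3 count is thus not separate from those of H2A and H2B. A FOXA1 peak anywhere in the gene body or the 5 kb beside it was nevertheless found at 5 of 6 H1 and 9 of 10 H4 genes, so at these types the peaks lay farther from the start. H1-3 had its FOXA1 peak, with a score of 340, centred 1190 bp before the start. HNF4A centres near the start were at 7 H2A, 5 H2B, 2 H3, 2 H4 and 0 H1 genes. No list had a centre within 1000 bp of an H1 start. None of these differences between types was tested.

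Scores of the peaks at the starts were low. The score is the authors' own value for a peak and is compared within a list. The 18 FOXA1 peaks near a histone start had scores from 29 to 259 with a median of 83, and 4 of them (22.2%) were above the list median. The other 52 FOXA1 peaks in the histone windows ran from 32 to 386 with a median of 122, and 21 (40.4%) were above it. Near all protein-coding starts the share above the list median was 43.4%. The highest near-start scores were 259 at H2AC8, where the centre was 736 bp after the start, and 197 at H2AC7.

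With only the upper 50% of the FOXA1 list by score, 4 genes (7.84%) had a centre near the start, against 3.31% of all genes. In the down-sampled FOXA1 list, with 38291 peaks, the count was 5 (9.8%), against 2.05%. HNF4A, with a list of that size, had 16. The count near starts therefore rests on low-scoring FOXA1 peaks.

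**Figure D2:**
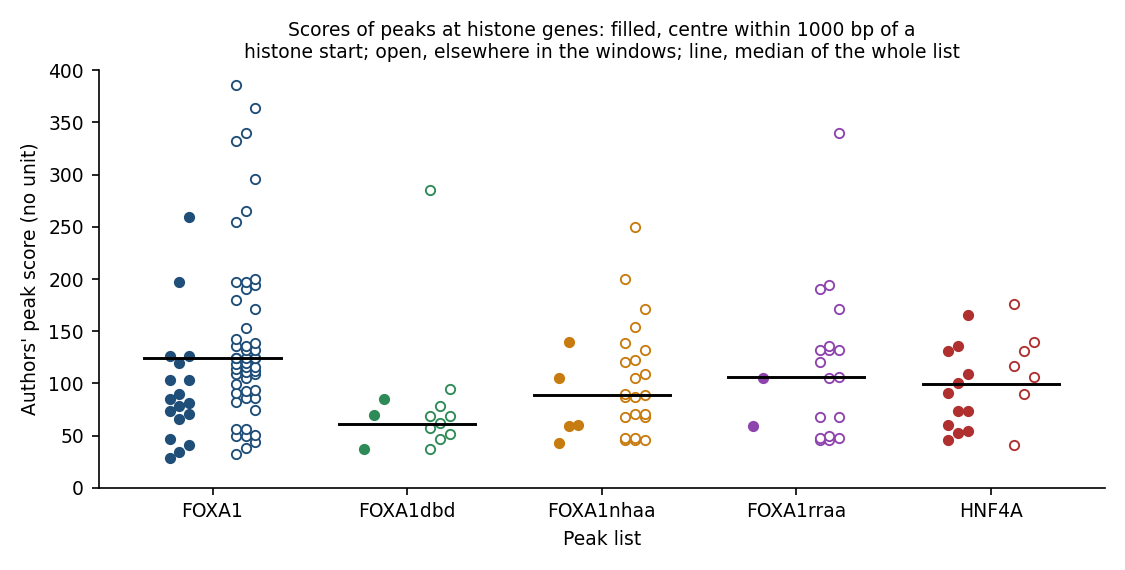
Authors' peak scores (no unit) of the peaks in histone gene windows, by list. Filled points are centred within 1000 bp of a histone start, open points lie elsewhere and the line is the median of the whole list. Most filled FOXA1 points lie below the line at 124.

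Promoter words of histone genes were frequent in and around the near-start FOXA1 peaks. The search covered 200 bp around each peak centre, which runs past the ends of narrower peaks. There 5 of 18 (27.8%) had the octamer ATTTGCAT on either strand. This compares with 1 of the other 52 (1.92%) and 2.9% of the 1449 FOXA1 peaks near any protein-coding start. The CCAAT word was in 12 of 18 (66.7%), against 34.6% and 30.3%. The forkhead cores TGTTTAC or TATTTAC were in 5 of 18 (27.8%), 12 of 52 (23.1%) and 19.8%, and in 18.2% of the whole list. The forkhead share thus lay near that of FOXA1 peaks elsewhere, while the octamer and CCAAT were more frequent. Both are common in histone promoters, and the 18 peaks were picked by their place at histone starts. The contrast therefore does not set FOXA1 peaks apart from the promoters around them. Of the 51 histone promoters, 250 bp before to 50 bp after the canonical start, 39.2% held the octamer and 88.2% CCAAT.

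The central 200 bases of the FOXA1 peak at H2AC7 are shown because they hold both a forkhead core and the octamer, in capitals, at chr6:26199549-26199748. The forkhead core reads GTAAATA there, the complement of TATTTAC, and comes before the octamer. The peak had a score of 197 and overlapped no peak of another list.
H2AC7: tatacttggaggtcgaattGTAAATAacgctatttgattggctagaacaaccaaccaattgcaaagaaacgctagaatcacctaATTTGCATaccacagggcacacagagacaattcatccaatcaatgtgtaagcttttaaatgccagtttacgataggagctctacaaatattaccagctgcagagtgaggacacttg
The whole FOXA1 peak at H2BC3, chr6:26044010-26044151, with a score of 71, is shown as one that holds the octamer, in capitals, without a forkhead core.
H2BC3: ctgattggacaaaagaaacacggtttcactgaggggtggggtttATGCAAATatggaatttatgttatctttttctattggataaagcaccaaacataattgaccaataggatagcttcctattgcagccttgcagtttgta

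Promoters were also searched without regard to peaks, from 250 bp before to 50 bp after each canonical start, both strands. The octamer ATTTGCAT was in 20 of 51 histone promoters (39.2%), against 1.58% of all protein-coding promoters. It was in 10 of 12 H2A and 10 of 13 H2B promoters and in 0 H1, H3 and H4 promoters. CCAAT was in 45 (88.2%, against 35.9%) and TATAAA in 35 (68.6%, against 9.8%). A forkhead core was in 6 (11.8%, against 4.13%), all at H2A and H2B genes. CAAAGTCCA was in 0, against 0.337%. Each word was counted once per promoter, and none of the words searched contains another. Promoters of divergent pairs overlap, however, so 1 word can count for both genes of a pair, and the promoters are not independent counts. The 6 promoters with a forkhead core include both genes of H2AC1/H2BC1 and of H2AC17/H2BC17.

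The wider window that defines the peaks of these genes is the gene body and 5 kb on either side. There FOXA1, whose list is the longest, again had a peak at the most genes. It had a peak at 46 of 51 genes (90.2%, 79 to 95.7%), against 62.3% of all protein-coding genes and 74.7% of those on chromosome 6. FOXA1nhaa followed with 34 genes (66.7%, 53 to 78%), against 56.3% of all genes. FOXA1dbd had a peak at 17 (33.3%, 22 to 47%), against 35.5%, and FOXA1rraa at 17, against 49.8%. HNF4A had one at 22 (43.1%, 30.5 to 56.7%), against 65.3%. Among the 22 neighbours in the span the shares were 86.4% for FOXA1, 77.3% for FOXA1nhaa and 31.8% for FOXA1dbd. They were 54.5% for FOXA1rraa and 45.5% for HNF4A. The FOXA1 share was thus near that of the neighbours, and the FOXA1nhaa share was below it. Other protein-coding genes have longer bodies, with a median record of 27220 bp against 496 bp here, and so wider windows. With the upper 50% of the list by score the FOXA1 share was 43.1%, against 51% of all genes and 59.1% of the neighbours. The order of the lists also follows their size. Down-sampled to 38291 peaks, as many as HNF4A has, FOXA1 had a peak at 20 genes, against 22 for HNF4A.

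In a window of equal width, 5 kb on either side of the start, FOXA1 had a peak at 45 genes (88.2%), against 37.1% of all genes and 59.1% of the 22 neighbours. FOXA1nhaa had 32 (62.7%, against 28.2% and 50%), FOXA1dbd 13 (25.5%, against 11.5% and 18.2%) and FOXA1rraa 17 (33.3%, against 21.7% and 36.4%). HNF4A had 20 (39.2%, against 48.8% and 22.7%). All 3 FOXA1 variants and FOXA1 were thus above the share of all genes at equal width, and HNF4A was below it and above its neighbours.

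**Figure D3:**
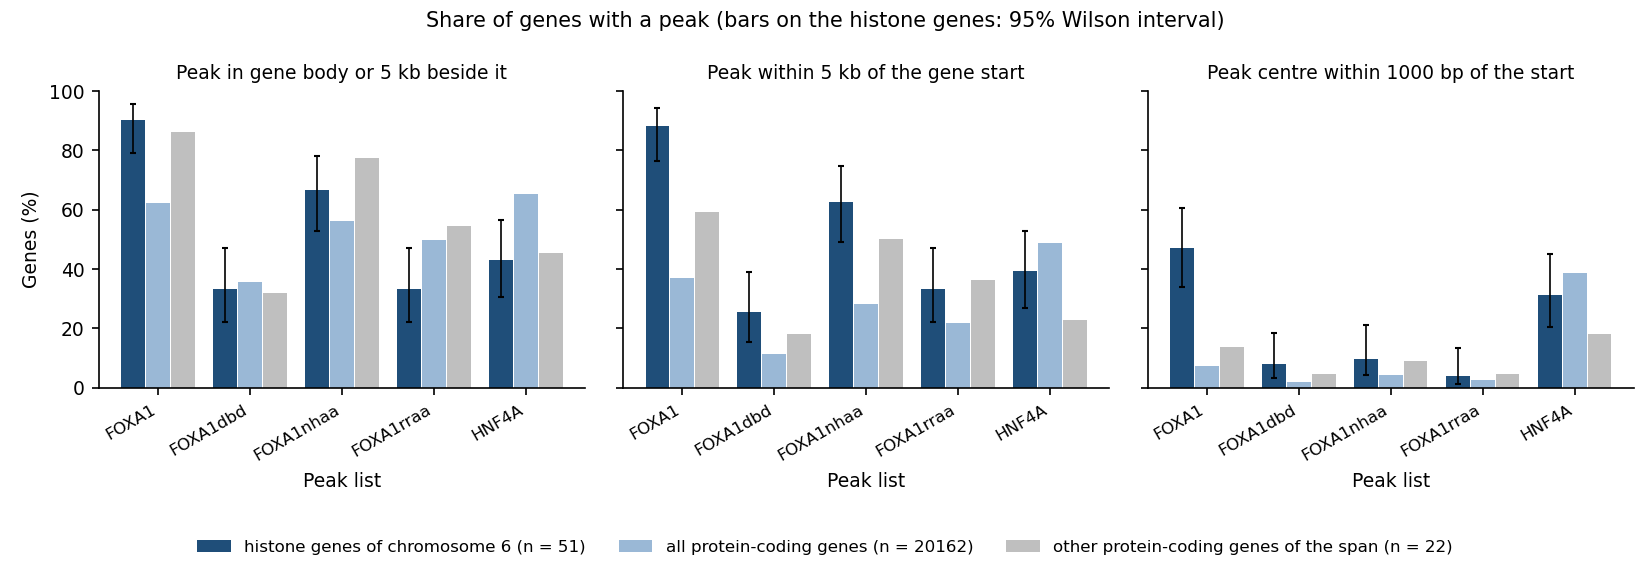
Percent of genes with a peak in the 5 lists under 3 window rules, for the 51 histone genes (dark bars, with 95% Wilson intervals), all 20162 protein-coding genes and the 22 other genes between the first and last histone gene. The FOXA1 bar of the histone genes stands at 47.1% in the right panel, where all genes reach 7.34%.

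Counted by length of sequence, FOXA1 peaks were again dense at these genes. The merged windows covered 374 kb and held 70 FOXA1 peaks, or 18.7 per 100 kb, against 7.62 over the windows of all protein-coding genes, 7.03 over chromosome 6 and 6.48 in the rest of the 2.14 Mb span. FOXA1dbd had 13 peaks (3.47 per 100 kb, against 1.33), FOXA1nhaa 28 (7.48, against 5.03) and FOXA1rraa 20 (5.34, against 3.53). HNF4A had 19 (5.07, against 2.05). Every list was denser at the histone genes than over all gene windows. Some FOXA1 rows are pieces of 1 named peak. Joined by name, the 70 FOXA1 rows made 65 peaks. Other FOXA1 counts given here, such as peaks per gene and sites, are of rows that were not joined.

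The genes fall into 4 sub-clusters where members lie less than 200 kb from their neighbour. The first holds H2AC1 and H2BC1, a pair known for expression in testis, the second runs from H1-1 to H4C8 with 28 genes, the third from H2BC11 to H2AC12 with 5, and the fourth from H2BC13 to H2BC17 with 16. FOXA1 had 21.3 peaks per 100 kb in the second, 22.1 in the third, 12.3 in the fourth and 7.17, from 1 peak, in the first. All 28 genes of the second and all 5 of the third had a FOXA1 peak, and 12 of 16 in the fourth did. H2BC1 was the only gene with no peak of any list in its window, and the peak of its partner H2AC1 was 4295 bp from the gene body.

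In the fourth sub-cluster FOXA1nhaa reached 15 of 16 genes, more than FOXA1, but with 5 peaks. A single FOXA1nhaa peak with a score of 250, at chr6:27778817-27779714, lay in the windows of 5 genes, H2BC13, H2AC13, H3C10, H2AC14 and H2BC14. Another, with a score of 87, lay in those of H2AC16, H1-5, H3C11 and H4C13, which are the 4 genes besides H2BC1 that had no FOXA1 peak. HNF4A had 0 peaks in the first sub-cluster and 4.6, 6.32 and 6.69 per 100 kb in the others.

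**Figure D4:**
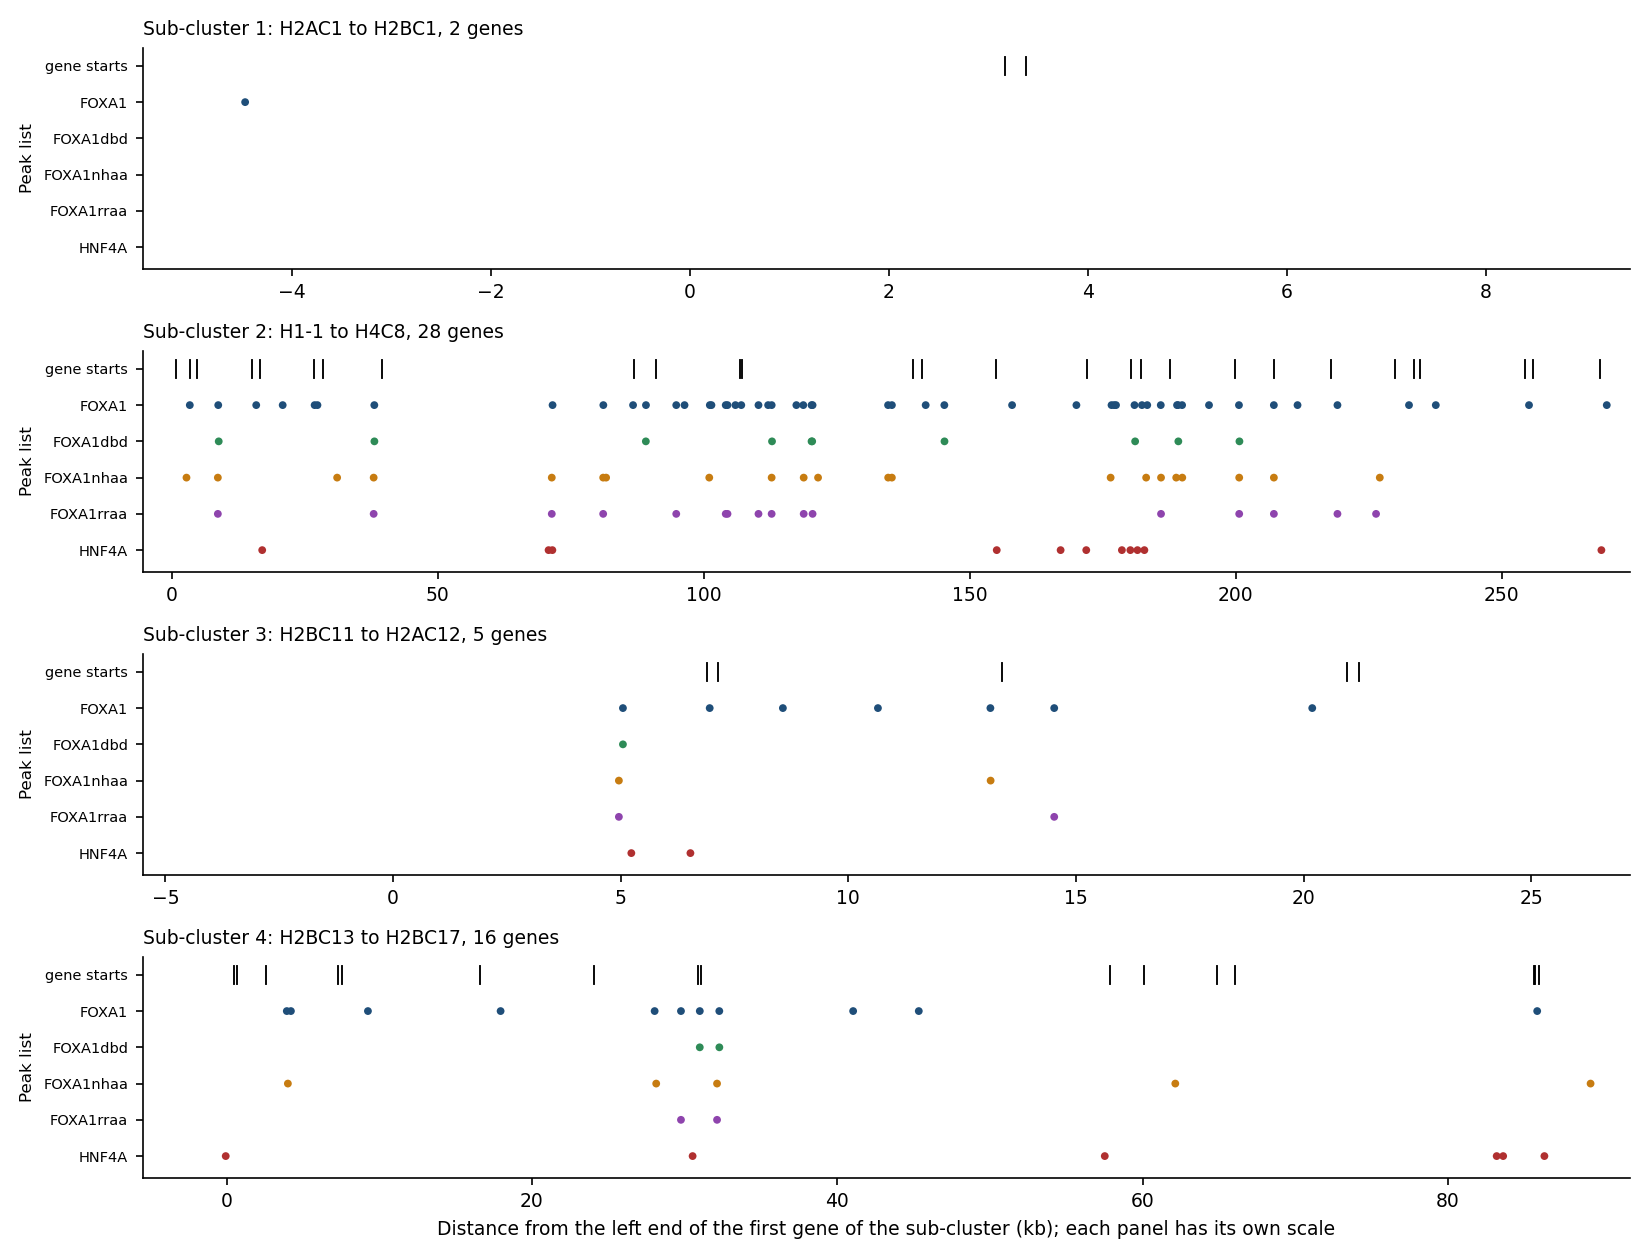
Peak centres of the 5 lists along the 4 sub-clusters in kb from the left end of the first gene, with gene starts as ticks. FOXA1 points are spread over the second sub-cluster, while the fourth has 11 of them.

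Genes differed in how many lists reached them. Peaks of all 5 lists lay in the windows of 7 genes, H2BC4, H2AC7, H4C5, H2BC11, H2AC11, H2AC15 and H2BC15. This was 13.7% of the genes, against 26.4% of all protein-coding genes with their longer windows. Peaks of 4 lists lay at 6 genes (11.8%, against 16.4%), of 3 at 13 (25.5%, against 10.9%), of 2 at 14 (27.5%, against 9.82%) and of 1 at 10 (19.6%, against 19.7%). In the equal window of 5 kb on either side of the start, 6 genes (11.8%) had all 5 lists, against 5.06%. FOXA1 was the only list at H2AC1, H3C7, H2BC9, H3C8, H2BC10, H2BC12, H2AC12 and H4C11. H2BC4 had 14 FOXA1 peaks and H2AC6 had 11, but their gene records are lengthened by alternative transcripts, that of H2BC4 to 37610 bp. HNF4A reached H2BC4 only through that long record, with its nearest centre 35369 bp from the H2BC4 start. Among short records, H2AC7 had 7 FOXA1 peaks and H3C4 had 6.

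**Figure D5:**
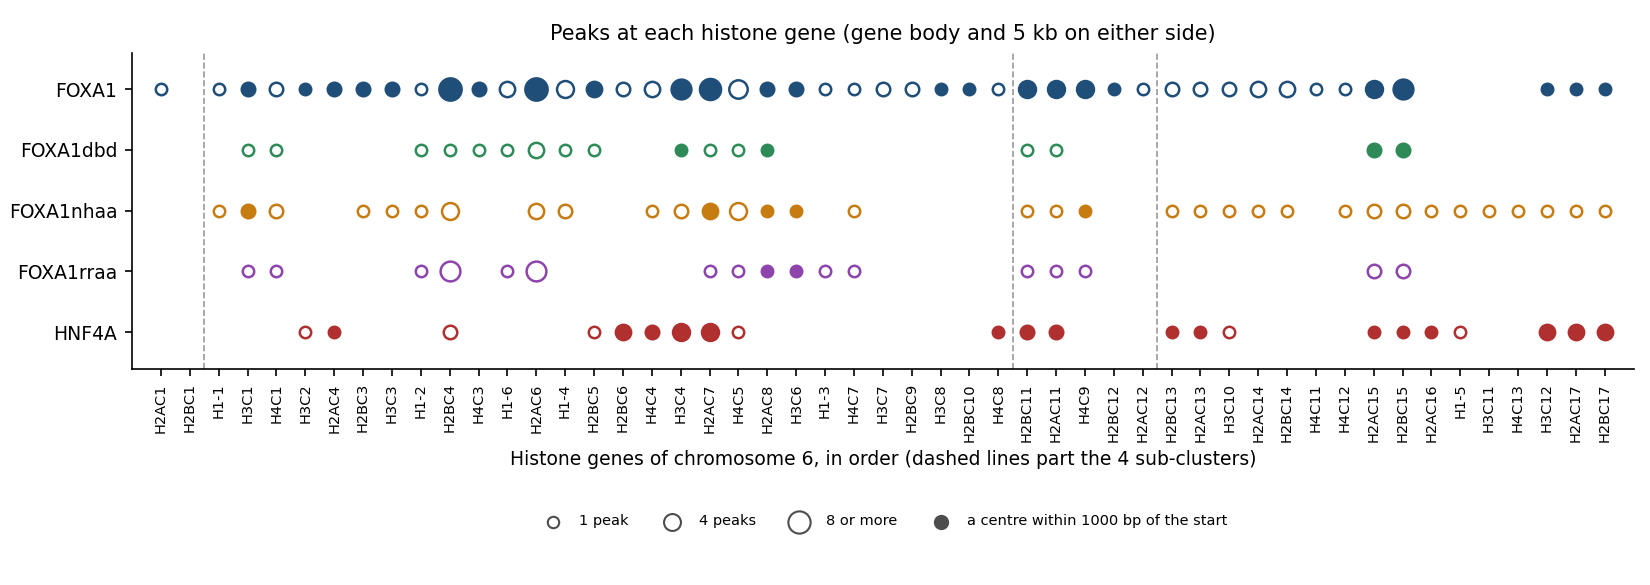
Peaks of each list in the window of each of the 51 histone genes, in chromosome order. Larger circles stand for more peaks and filled circles for a centre within 1000 bp of the start. FOXA1 circles are missing at 5 genes, and H2BC1 has none from any list.

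A gene with 5 lists need not have a site bound in all of them. Joined over lists, the peaks made 92 sites, of which 58 belonged to 1 list: 34 to FOXA1, 16 to HNF4A, 7 to FOXA1nhaa and 1 to FOXA1rraa. The share of sites of 1 list was 63%, near the 61.2% over all sites of these lists. FOXA1 alone made 37% of the sites, against 26.7%, and FOXA1nhaa alone 7.61%, against 16.9%. Peaks of 4 or more lists met at 7 sites (7.61%, against 5.6%), and of all 5 at 1. At each of the 7 sites the FOXA1nhaa and FOXA1rraa rows had the same coordinates and score, so they are not separate peaks. At the site of all 5 the FOXA1 and FOXA1dbd peaks also had the same coordinates, with different scores. That site, chr6:27098424-27099032, lay in an intron of the H2BC11 record and in the windows of H2BC11 and H2AC11. The FOXA1 score of 171 and the HNF4A score of 140 there were above the medians of their own lists, 124 and 99. The FOXA1dbd score of 52 was below its list median of 61, as were those of FOXA1nhaa and FOXA1rraa, both 46, below 89 and 106. The 62 bases common to its 5 peaks, chr6:27098786-27098847, are shown as the only stretch all lists share, and hold neither forkhead core nor CAAAGTCCA.
H2BC11 site: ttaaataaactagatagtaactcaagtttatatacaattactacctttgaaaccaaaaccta

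The highest FOXA1 score was 386, for a peak at chr6:26129092-26129618 in an intron of the H2AC6 record, and it met no other list. The next was 364, at chr6:27807261-27807794 in an intron of the H2BC15 record, with peaks of all 3 variants. The third was the H1-3 peak at chr6:26236053-26236757, whose row stood with the same score of 340 in the FOXA1rraa list. Next in that list were 194 at H2AC6 and 190 at H4C9.

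The highest FOXA1dbd score was 285, at the H2BC15 peak, with a fold enrichment of 8.39 given by the authors, and this row carries the prefix WT_FOX. The next FOXA1dbd scores were 95, in the windows of H3C1 and H4C1, and 85, in those of H3C4 and H2AC7. After its score of 250, FOXA1nhaa had 200 in the H1-4 window and 171 in the H2BC4 window. HNF4A had 176 in the H2BC4 window, 166 at H2BC13 and 140 at the H2BC11 site. The median score in the histone windows stood near that of the whole list. FOXA1 had 115 against 124, FOXA1dbd 69 against 61, FOXA1nhaa 88 against 89, FOXA1rraa 105.5 against 106 and HNF4A 100 against 99.

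Most variant peaks met a FOXA1 peak. All 13 FOXA1dbd peaks lay wholly inside a FOXA1 peak, and 96.2% of the whole list overlapped one. Of the 28 FOXA1nhaa peaks, 21 (75%) overlapped FOXA1, against 58.4% of that list, and of the 20 FOXA1rraa peaks, 19 did, against 86.8% of the list, 8 of them as the same row. Seen from FOXA1, 13 of 70 peaks (18.6%) overlapped FOXA1dbd, against 17.3% of the list, 23 (32.9%) overlapped FOXA1nhaa, against 39.7%, and 19 (27.1%) overlapped FOXA1rraa, against 39.9%. HNF4A overlapped 2 (2.86%, against 1.68%).

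The near-start FOXA1 peaks met the variants less than the others by count. FOXA1nhaa overlapped 3 of 18 near a histone start (16.7%) and 20 of 52 elsewhere (38.5%), and FOXA1rraa overlapped 2 (11.1%) and 17 (32.7%). FOXA1dbd overlapped 3 (16.7%) and 10 (19.2%). Near all protein-coding starts the shares were 37% for FOXA1nhaa, 34.8% for FOXA1rraa and 20.9% for FOXA1dbd. The near-start peaks had lower scores, as given above, and the part of score in this was not tested.

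FOXA1 was near few starts in the other histone gene lists, and HNF4A was near most starts in those of replication-independent genes and regulators. Of 12 replication-dependent histone genes on chromosome 1, FOXA1 had a centre within 1000 bp of 2 starts, H3C13 and H2AC19, FOXA1nhaa of 1, H3C13, and HNF4A of 1, H2BC21. Of 10 replication-independent histone genes, FOXA1 had a near centre at 1, H3-3B. HNF4A had one at 8: H3-3A, H2AX, H2AJ, H3-3B, CENPA, H1-10, MACROH2A1 and H2AZ2. Of 8 genes for regulators and 3′ end processing of histone mRNA, FOXA1 had 0. HNF4A had 6, at NPAT, the S-phase coactivator of histone genes, SLBP, which binds the stem-loop of histone mRNA, the 3′ end processing factors LSM10, LSM11 and ZNF473, and POU2F1, which binds the octamer. Over all protein-coding genes the shares were 7.34% for FOXA1, 4.35% for FOXA1nhaa and 38.8% for HNF4A. The FOXA1 counts in these lists are too small to be set apart from that background, and none of these shares was tested against the 51.

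Some histone genes have near-identical copies. Of the 32-base words in a canonical histone transcript, a median of 5.83% (0 to 93%) occurred again on chromosomes 1 to 22, X and Y, and of those in the 600 bp before the start a median of 1.05% (0 to 60.8%). The highest values were 93% in H4C12 and 92.5% in H4C11 for the transcript, and 60.8% before H2BC13 and 60.6% before H2BC14. Before the 24 starts with a near FOXA1 centre the share ran from 0 to 30.2% with a median of 2.46%, and before the other 27 from 0 to 60.8% with a median of 0%. H2BC13, with the highest share, had an HNF4A centre near its start with a score of 166. Read length and the handling of reads that fit several places are not given in the sources used here, and the part of such copies in the peaks was not tested.

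At the edge of the 5 kb rule, the FOXA1 peak nearest inside lay 4737 bp from H2AC8 with a score of 139, and the nearest outside 5267 bp from H2BC11 with 230. For FOXA1dbd these were 3707 bp from H4C1 with 95 and 5397 bp from H2BC11 with 95. For FOXA1nhaa they were 4444 bp from H1-4 with 90 and 5353 bp from H4C8 with 104. For FOXA1rraa they were 3310 bp from H4C1 with 68 and 5267 bp from H2BC11 with 230. For HNF4A they were 968 bp from H3C4 with 131 and 5068 bp from H2BC9 with 279.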

How the data were processed

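Peak lists of 5 constructs were analysed, with a down-sampled FOXA1 list as an alternative. Per the submitters' processing notes, Bowtie2 2.3.4.1, Picard, GATK 4.2.6.0, bedtools 2.27.1, MACS2 2.2.7.1 and deepTools 3.5.0 were used with hg19. Whether the authors pooled libraries for peak calling is not given in the sources used here. The deposited lists hold a score per peak, and those of the 3 variants and HNF4A also a deposited fold enrichment (ratio) and −log10 p and q-values. All peak ends lay within GRCh37 chromosomes, and rows with identical coordinates counted once. Read depth is unknown.

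A peak counted for a gene when at least 1 bp lay in the gene record or 5 kb beside it. The start was the outermost start of the record, and the peak centre was the midpoint of its row. Python 3.11.15 with pandas 2.3.3 was used, and the overlap code was tested on simulated data. No difference was tested, because there is 1 list per construct, and 95% Wilson intervals cover counting error over genes that share peaks. The genes and lists were chosen with earlier results of these data known. Named were the 3 highest-scoring peaks per list, genes with peaks of 5 lists or of none, peaks at the 5 kb edge, and related genes with a centre near the start. Genes with FOXA1 or HNF4A near the start, paired genes and genes behind small counts were named after their values were seen. Alternatives were other flanks, the upper 50% by score, other distances from the start, the down-sampled list and joined FOXA1 rows of 1 peak name. Canonical transcripts were a further alternative, chosen after seeing the data. A gene of the replication-independent list is not reported here, and its counts leave it out.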

Additional observations from a re-analysis of the deposited data

How the results depend on the processing

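No paired analysis was possible because no result comes from a test, with 1 peak list per construct. Of the recomputed counts, 57 stayed within 1.5 times the value reported and 27 did not. With the upper 50% of each list by score, genes with a peak came to 22 for FOXA1, 11 for FOXA1dbd, 16 for FOXA1nhaa and 7 for FOXA1rraa. These were 43.1, 21.6, 31.4 and 13.7% of the histone genes, against 51, 24.8, 45.4 and 39% of all protein-coding genes. All 4 shares were thus below those of all genes, whose windows are longer. Distinct peaks came to 25, 8, 13 and 9, and to 10 for HNF4A. Genes with a centre within 1000 bp of the start came to 4, 2, 2 and 0, and to 9 for HNF4A. These were 7.84, 3.92, 3.92, 0 and 17.6%, against 3.31, 0.724, 2.11, 1.41 and 23.5% of all protein-coding genes. The down-sampled FOXA1 list gave 20 genes, 17 peaks and 5 near starts. The 20 genes were 39.2% of the histone genes, against 41% of all protein-coding genes. Within 2500 bp of the start, centres were found at 39 genes for FOXA1, 11 for FOXA1dbd, 15 for FOXA1nhaa and 11 for FOXA1rraa. As shares of the histone genes these were 76.5, 21.6, 29.4 and 21.6%, against 22.4, 6.13, 15.7 and 11% of all protein-coding genes. Counting any overlap of the 1000 bp window gave 8 genes for FOXA1nhaa and 5 for FOXA1rraa. With 10 kb beside the gene, FOXA1dbd reached 26 genes and FOXA1rraa 28, and with 2 kb FOXA1nhaa reached 17. Without rows that have FOXA1 coordinates, FOXA1rraa had 12 peaks. These settings change the number of peaks or the length searched by construction. Canonical transcripts, an alternative chosen after seeing the data, moved no count past 1.5 times. Read depth is unknown, so an absent peak does not show absent binding.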
